A study of Callithrix jacchus with 4 samples.

Results

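The GADD45 and p53 damage response genes described here are 8 genes, measured by 14 of the 43931 array features and set beside all 18014 named genes. They are GADD45A, GADD45B, GADD45G, CDKN1A, MDM2, SESN1, SESN2 and TNFRSF10B, with Entrez gene identifiers 1647, 4616, 10912, 1026, 4193, 27244, 83667 and 8795. A feature was counted for a gene when that gene was its only symbol in the platform annotation, and all 8 genes had at least 1 such feature. GADD45A was chosen by its measured values, since it was low on all 4 arrays, so its ratios are a description and were not tested.

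The tissue was the substantia nigra pars compacta of 3-year-old male common marmosets, cut out by laser microdissection as a strip of the nucleus rather than as sorted neurons. MPTP was injected once into a vein of 4 animals at 2.5 mg/kg, and 1 animal each was killed after 2 h, after 6 h, after 1 day and after 14 days, while 1 animal received vehicle. MPTP is a toxin whose metabolite enters dopamine neurons and blocks mitochondrial complex I. Each of the 4 two-colour arrays set the Cy5-labelled RNA of 1 MPTP animal against the Cy3-labelled RNA of the same vehicle animal, on probes designed for human transcripts. No time had a second animal and no array had its dyes swapped, so the spread between animals is unknown and p-values are absent from what follows. Because every array holds the same vehicle RNA, a low level in the MPTP animals and a high level in the 1 vehicle animal cannot be told apart. In such bulk tissue, fewer cells of a type and less RNA per cell cannot be told apart either.

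When DNA is damaged, the transcription factor p53 is freed from its ubiquitin ligase MDM2 and raises genes that halt the cell cycle, limit growth signalling or open the way to cell death. GADD45 proteins are small nuclear stress proteins that bind the replication clamp PCNA and the p53 target p21, and switch on the kinase MAP3K4 upstream of p38 and JNK. GADD45A and SESN2 are induced by p53 and also by the unfolded protein and amino acid responses, which are known to be engaged in dopamine neurons treated with mitochondrial toxins.

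Levels are given as log2 ratios, MPTP over vehicle, centred on the median of each array. A value of −1 means that the level was 2-fold lower in the MPTP animal, and a value of 1 that it was 2-fold higher. Neither scale nor direction is stated with the deposited ratios. Both were inferred, the scale from how the values are distributed and the direction from the labelled dyes, and an opposite ratio would turn every sign. A gene with several features is given as their median, and an SD beside it is the spread over its features on 1 array, not over animals. The SD over all genes was 0.71, 0.57, 0.48 and 0.47 from 2 h through 14 days. The table holds ratios and no intensities, so the labelled nucleus could not be checked against the level of its markers. TH, which catalyses the rate-limiting step of dopamine synthesis, had ratios of 0.90, 0.64, 0.39 and 0.50 from 2 h to 14 days.

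GADD45A was far below vehicle on every array, while the other 7 genes stayed within 2-fold with the exception of TNFRSF10B at 2 h. The ratio of GADD45A was −2.38, −2.82, −2.73 and −3.24 from 2 h through 14 days. These ratios correspond to levels 5.22-fold, 7.05-fold, 6.63-fold and 9.46-fold lower than in the vehicle animal. The lowest ratio was that of the 14 day animal and the highest that of the 2 h animal, a range of 0.86, and 28.4% of all genes had a wider range over the 4 arrays. Of the 18014 genes, 52 had a still lower ratio in the 2 h animal, 19 each in the 6 h and 1 day animals, and 3 in the 14 day animal. With the arrays scaled to the same median absolute deviation the ratios of GADD45A were −1.68, −2.75, −3.65 and −3.98, so it remained more than 2-fold lower on each array, with sizes that depend on the scaling.

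**Figure D1:**
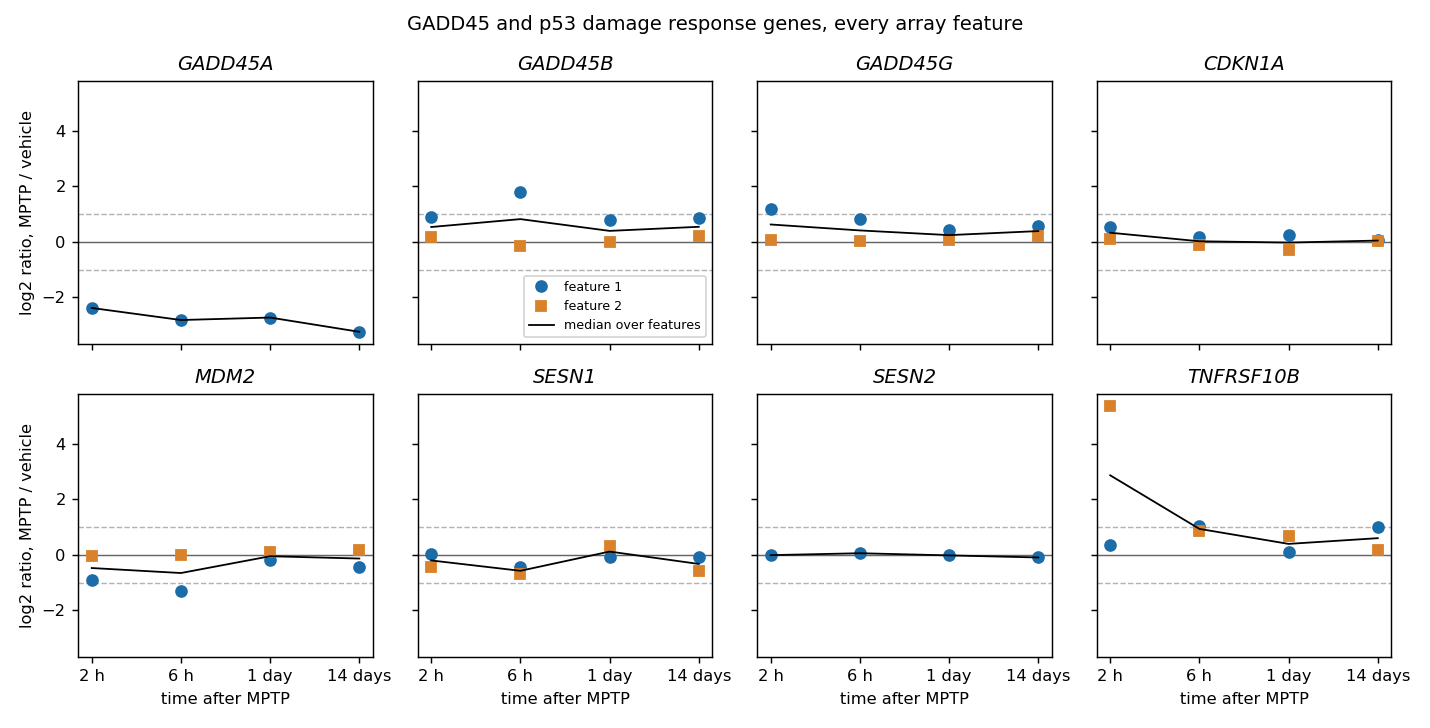
Log2 ratio of MPTP over vehicle (vertical axis) at the 4 times after MPTP (horizontal axis) for each of the 8 genes. Points are array features, the line joins the medians over features of 4 different animals, and dashed lines mark 2-fold; GADD45A lies between −2.38 and −3.24 on its 1 feature, and the 2 features of TNFRSF10B lie at 0.37 and 5.36 at 2 h.

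GADD45A was read by 1 feature only, so no second feature can be set against it. How far such a low feature was shared by other features of its gene can be seen elsewhere on the arrays. There were 5 features at least 4-fold lower on all 4 arrays, and they belonged to GADD45A, TTC12, TRIB3 and MET. TTC12, a factor in dynein arm assembly, held 2 of them, its only features. TRIB3, a pseudokinase induced by integrated stress, had 1 feature at −3.16, −2.81, −2.70 and −2.54 from 2 h to 14 days and another at 0.95, 0.49, 0.54 and 0.17. The receptor tyrosine kinase gene MET had 1 feature at −2.59, −2.67, −2.07 and −2.02, and its other 2 features lay between −0.78 and 0.17. At 2-fold there were 56 genes with 2 or more features of which at least 1 was low on all 4 arrays, and 3 of these genes (5.36%) had a second such feature.

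Neither of the other GADD45 genes was low. GADD45B, which nerve cell activity and NF-kappaB signalling induce, had ratios of 0.53 ± 0.52, 0.82 ± 1.36, 0.39 ± 0.55 and 0.54 ± 0.45 from 2 h through 14 days (SD over 2 features). Its features are both annotated to the same transcript, as are those of SESN1 and TNFRSF10B. The annotation does not show whether such features are different probes or repeat spots of 1 probe, so the SD over features may be a spread between probes or between spots. The feature with the higher ratios lay at 0.90, 1.78, 0.78 and 0.86, and the other at 0.17, −0.15, 0.0069 and 0.22. At 6 h they stood 1.93 apart, a gap that 3.37% of the 5162 genes with 2 features exceeded, so whether GADD45B was 2-fold higher at 6 h depends on the feature read.

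GADD45G, a family member first described as a cytokine response gene, had ratios of 0.62 ± 0.81, 0.41 ± 0.56, 0.24 ± 0.26 and 0.39 ± 0.25 from 2 h through 14 days (SD over 2 features). Its 2 features are annotated to different transcripts. The feature with the higher ratios lay at 1.20, 0.81, 0.42 and 0.56, and the other at 0.049, 0.012, 0.060 and 0.21. Both lay above 0 on each array, but only the feature with the higher ratios passed 2-fold, at 2 h. The log2 ratio of GADD45A minus that of GADD45B was −2.92, −3.63, −3.12 and −3.78 from 2 h to 14 days, and minus that of GADD45G it was −3.01, −3.23, −2.97 and −3.63. The ratios of GADD45B and GADD45G stood 0.41 or less apart on every array, which is within the SD over features of at least 1 of them at each time.

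**Figure D2:**
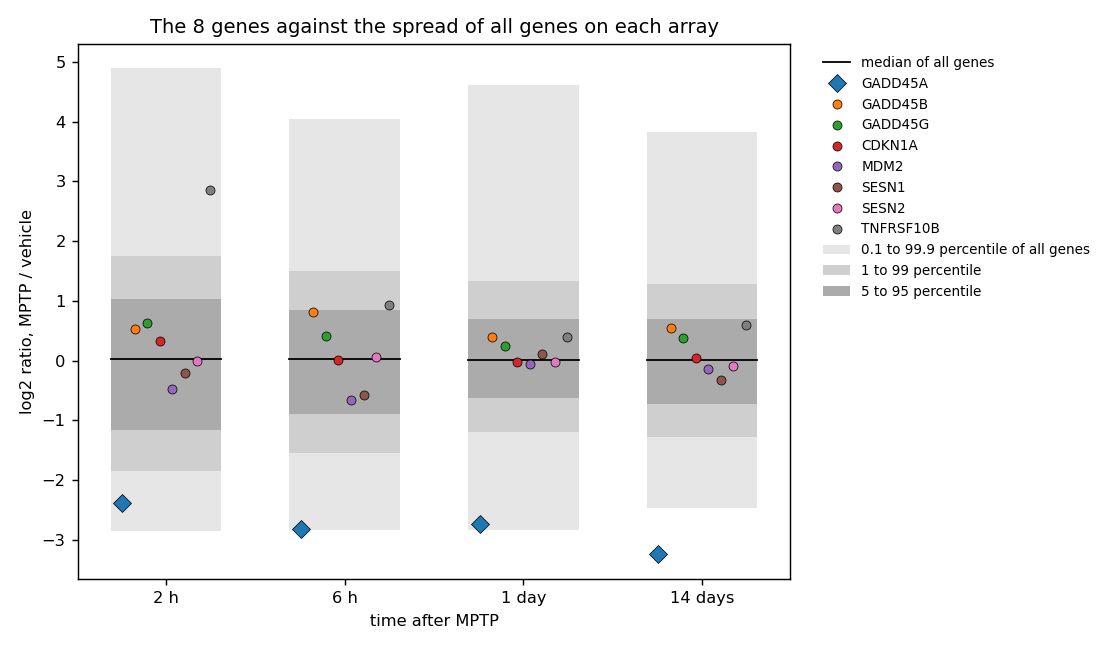
Log2 ratio of MPTP over vehicle (vertical axis) of the 8 genes at each time (horizontal axis), over grey bars for the central ranges of all 18014 genes. GADD45A lies near or beyond the 0.1 percentile from 6 h on, and the other genes lie within 2-fold except TNFRSF10B, at 2.86 at 2 h.

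CDKN1A encodes p21, the inhibitor of cyclin-dependent kinases through which p53 arrests the cell cycle. Its ratios were 0.33 ± 0.31, 0.019 ± 0.20, −0.028 ± 0.37 and 0.044 ± 0.0082 from 2 h through 14 days (SD over 2 features). The features, annotated to different transcript records, lay at 0.54 and 0.11 at 2 h and at 0.23 and −0.29 at 1 day. Both were within 2-fold of vehicle on every array.

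MDM2, which marks p53 for degradation and is itself a p53 target, had ratios of −0.48 ± 0.60, −0.66 ± 0.91, −0.051 ± 0.21 and −0.13 ± 0.42 from 2 h through 14 days (SD over 2 features). The feature annotated to a cloned cDNA lay at −0.90, −1.30, −0.20 and −0.43. The feature annotated to the reference transcript lay at −0.053, −0.012, 0.099 and 0.16. The low ratios of MDM2 in the first hours were therefore those of 1 feature, and the features lay on opposite sides of 0 at 1 day and 14 days.

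The sestrins are stress-induced inhibitors of the growth kinase mTORC1, and SESN2 also senses leucine. SESN1, a p53 target, had ratios of −0.20 ± 0.32, −0.58 ± 0.18, 0.12 ± 0.26 and −0.33 ± 0.35 from 2 h through 14 days (SD over 2 features). At 6 h its features lay at −0.45 and −0.70, so both were below vehicle but within 2-fold. SESN2 had 1 feature and the narrowest range of the 8 genes, with ratios of −0.011, 0.058, −0.021 and −0.095. A wider range over the 4 arrays was found for 94.5% of all genes. A ratio near 0 can also come from a spot near background, which the deposited values do not show.

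TNFRSF10B encodes DR5, a death receptor for TRAIL that p53 and the unfolded protein response induce. Its median ratio was 2.86 ± 3.53, 0.93 ± 0.12, 0.39 ± 0.41 and 0.60 ± 0.58 from 2 h through 14 days (SD over 2 features). The value at 2 h joins features at 5.36 and 0.37 that are annotated to the same transcript. They stood 4.99 apart, and 0.368% of genes with 2 features stood farther apart at 2 h. At 6 h the features lay at 0.85 and 1.02, near 2-fold and close together. At 14 days the feature with the lower ratio at 2 h lay at 1.01 and the other at 0.19, the reverse of their order at 2 h.

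Counted at 2-fold, 1 of the 8 genes was higher at 2 h and 0 were higher at 6 h, 1 day and 14 days. Of all genes, 5.47%, 3.37%, 2.27% and 2.16% were at least 2-fold higher at these times. GADD45A was the 1 gene of the 8 that was lower at each time, where 7.22%, 3.89%, 1.67% and 2.12% of all genes were at least 2-fold lower. Nothing is read from the last count, since the low ratio was the reason for choosing GADD45A. On all 4 arrays 0.216% of genes, 39 in number, were at least 2-fold lower and 0.15% at least 2-fold higher.

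Without GADD45A, the median over the other 7 genes was 0.33, 0.058, 0.12 and 0.044 from 2 h through 14 days. The median over all genes was 0.027, 0.029, 0.015 and 0.0095. MDM2 lay below 0 on all 4 arrays, as did 18.5% of all genes, and GADD45B, GADD45G and TNFRSF10B lay above 0 on all 4, as did 23.5%. GADD45A also lay below 0 on all 4, which was the reason for choosing it, so nothing is read from its side. The 4 arrays share the vehicle RNA, so these sides are not 4 separate observations. Of the 6 genes with 2 features, 5 had both features on the same side of 0 in the 2 h animal, 4 in the 6 h animal, 3 in the 1 day animal and 5 in the 14 day animal. Over all genes with 2 features these shares were 55.8%, 57.4%, 52.7% and 48.3%.

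A difference between 2 arrays sets 1 MPTP animal against another, with the vehicle level common to both, and on these differences, in arrays left at their own spread, GADD45A lay within 2-fold. It differed by −0.43 between 6 h and 2 h, by 0.089 between 1 day and 6 h and by −0.51 between 14 days and 1 day. Larger differences in either direction were found for 34.5%, 77.9% and 16.8% of all genes. With the arrays scaled to equal spread its differences were −1.07, −0.90 and −0.33, so that between 6 h and 2 h it then passed 2-fold.

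In arrays left at their own spread, TNFRSF10B was the 1 gene of the 8 that differed by 2-fold between consecutive times, with −1.93 ± 3.65 (SD, 2 features) between 6 h and 2 h. Its features differed by −4.51 and 0.66, in opposite directions, and with equal spread the gene's difference was −1.11. It was the 1 of 8 genes at least 2-fold lower at 6 h than at 2 h, beside 3.98% of all genes, and 0 were at least 2-fold higher, beside 4.9%. Between 1 day and 6 h, and between 14 days and 1 day, 0 of the 8 genes differed by 2-fold. Of all genes, 3.59% were 2-fold or more above and 2.69% below their 6 h level at 1 day, and 2.26% above and 2.53% below their 1 day level at 14 days. The largest differences within 2-fold were those of SESN1, 0.69 ± 0.44 (SD, 2 features), and MDM2, 0.60 ± 0.70, between 1 day and 6 h. The SESN1 features both had higher ratios at 1 day than at 6 h, by 0.38 and 1.01.

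**Figure D3:**
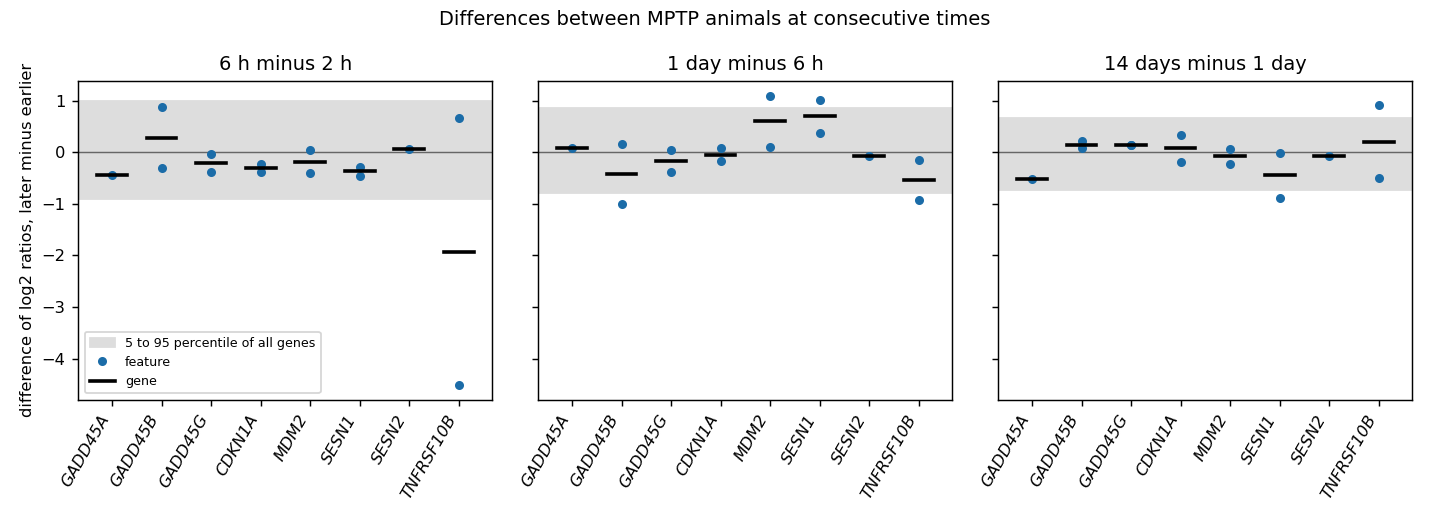
Difference of log2 ratios between consecutive times, later minus earlier (vertical axis), for the 8 genes (horizontal axis). Points are features, bars the genes, and the grey band spans the 5 to 95 percentile of all genes; the difference of GADD45A lies within the band in each panel, and that of TNFRSF10B lies outside it between 6 h and 2 h.

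Of 151 other genes listed for the p53 and damage response, 133 were measured and the rest were not analysed here. At 2 h, 7 (5.26%) passed 2-fold above the vehicle animal and 14 (10.5%) below it, beside 5.47% and 7.22% of all genes. The 6 h animal had 4 above and 4 below (3.01% each, beside 3.37% and 3.89% of all genes). The 1 day animal had 3 and 3 (2.26% each, beside 2.27% and 1.67%), and the 14 day animal 1 and 3 (0.752% and 2.26%, beside 2.16% and 2.12%). With the arrays scaled to equal spread the counts were 3 above and 3 below at 2 h, 4 and 4 at 6 h, 5 and 5 at 1 day and 2 and 6 at 14 days. Of all genes scaled in this way, 2.22%, 3.15%, 4.34% and 3.56% were at least 2-fold higher from 2 h through 14 days. Those at least 2-fold lower were 2.84%, 3.63%, 3.44% and 3.75%. The median over the 133 genes was −0.0083, −0.00067, 0.0077 and −0.045 from 2 h to 14 days, close to the medians of all genes.

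Among the 12 measured genes of p53 regulation, 0 were higher at 2 h and 2 (16.7%) were lower, beside 5.47% and 7.22% of all genes. The lower ones were RCHY1, the ubiquitin ligase Pirh2 that acts on p53, at −1.32 ± 0.18 (SD, 2 features), and TP53BP2, a p53-binding protein, at −1.08 on 1 feature. No gene of this list was 2-fold from vehicle later, when RCHY1 lay at −0.30, 0.19 and −0.14. MDM4, the partner of MDM2 in restraining p53, had ratios of 0.26, 0.14 and −0.06 from 6 h on, and its middle feature was listed at 0 at 2 h. The list medians were −0.034, −0.21, 0.088 and −0.086.

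Of 28 other p53 target genes, 3 were higher and 1 lower at 2 h, 2 higher at 6 h, 1 higher at 1 day and 0 higher at 14 days, with 0 lower from 6 h on. Over all genes 5.47% were higher and 7.22% lower at 2 h, and 3.37%, 2.27% and 2.16% were higher at the later times. The higher ones at 2 h were THBS1, an extracellular matrix protein (2.86 ± 3.02, 2 features that disagreed), TP53I3, a quinone reductase (1.36), and the death receptor gene TNFRSF10A (1.15). TP53I3 had ratios of 1.25, 0.68 and 1.00 at the later times, the last just under 2-fold, on 1 feature. PLK3, a stress-induced kinase, lay at 1.51 at 6 h, and RRM2B, a subunit of the p53-induced ribonucleotide reductase, at 1.86 at 1 day, each on 1 feature. PERP, a membrane protein linked to p53-dependent death, was the lower one at 2 h, at −1.17 ± 1.15 (SD, 2 features).

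BBC3, PMAIP1 and BAX, through which p53 opens the mitochondrial route to cell death, had median ratios within 2-fold at each time. BBC3, which encodes PUMA, had ratios of 0.71 ± 0.25, 0.50 ± 0.30, 0.04 ± 0.06 and 0.03 ± 0.14 from 2 h through 14 days (SD over 3 features). PMAIP1, which encodes NOXA and was read by 10 features, had ratios of 0.39 ± 0.16, 0.19 ± 0.16, 0.11 ± 0.23 and 0.33 ± 0.57. BAX, the pore-forming effector, lay at 0.02 ± 0.28, 0.04 ± 0.71, 0.08 ± 0.84 and 0.13 ± 0.59 (SD over 3 features), so its features lay far apart from 6 h on. CCNG1, cyclin G1, lay at 0.29, 0.06, −0.03 and 0.12. The medians of the p53 target list were 0.073, 0.13, 0.030 and 0.079.

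**Figure D4:**
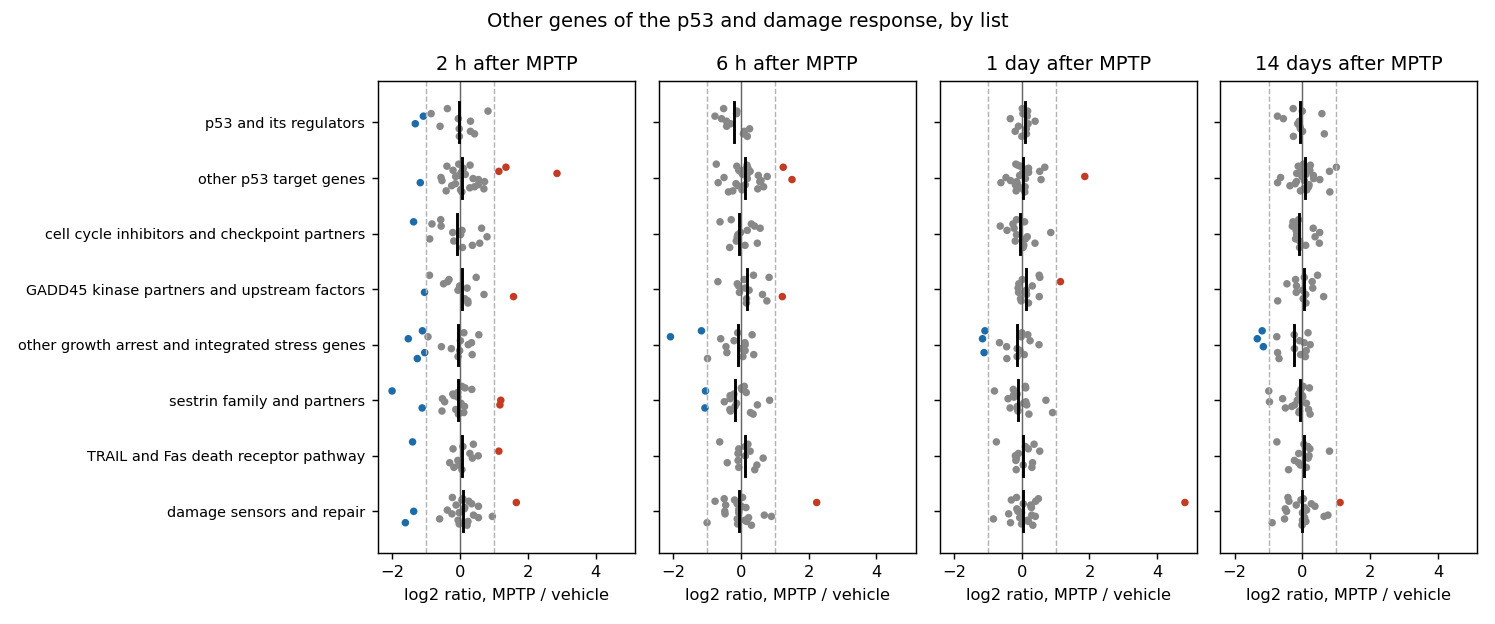
Log2 ratio of MPTP over vehicle (horizontal axis) of each measured gene of 8 lists (rows) at the 4 times (panels). Each point is a gene, red where at least 2-fold higher and blue where at least 2-fold lower, and the black bar is the list median. Among the growth arrest and integrated stress genes 0 of 15 were higher at any time and 2 to 4 were lower. Of all genes, 5.47%, 3.37%, 2.27% and 2.16% were higher and 7.22%, 3.89%, 1.67% and 2.12% lower from 2 h through 14 days. The lower ones include TRIB3 at each time, a median of 2 opposed features.

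The other growth arrest and integrated stress genes, which include sensor kinases such as EIF2AK3 and EIF2AK4, had members below vehicle and none 2-fold above it at any time. Above 0 lay 6, 6, 5 and 5 of them from 2 h through 14 days. Of 15 measured, 4 were at least 2-fold lower at 2 h, 2 at 6 h and 3 each at 1 day and 14 days, beside 7.22%, 3.89%, 1.67% and 2.12% of all genes. With equal spread of the arrays these counts were 1, 2, 3 and 3, beside 2.84%, 3.63%, 3.44% and 3.75% of all genes scaled in the same way. The counts in the arrays left at their own spread include TRIB3, whose features are opposed, at each of the times. EIF2AK3, the kinase PERK that senses unfolded protein, had ratios of −1.52, −0.59, −1.15 and −1.33 on 1 feature. EIF2AK4, the amino acid sensor GCN2, lay at −2.07 at 6 h, and the asparagine synthetase gene ASNS at −1.26 at 2 h, each on 1 feature. The transcription factor ATF5 lay at −1.04 at 2 h and −1.11 at 1 day.

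DDIT3, which encodes the death-linked transcription factor CHOP, had ratios of −0.55, −0.44, −0.44 and −1.15 from 2 h to 14 days on 1 feature. ATF4, which drives both DDIT3 and SESN2, lay at 0.36 ± 0.45, 0.38 ± 0.14, 0.08 ± 0.14 and −0.05 ± 0.23 from 2 h through 14 days (SD over 3 features). ATF3, another stress-induced factor of the same family, lay at −0.06, 0.06, −0.13 and 0.09. TRIB3 counted as lower at all 4 times with a median near −1.1, but this is the middle of the 2 opposed features given above. The medians of this list were −0.056, −0.090, −0.13 and −0.24.

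Of the 14 measured kinase partners and upstream factors of GADD45, 1 was higher and 1 lower at 2 h, 1 was higher at 6 h and 1 at 1 day, and 0 were 2-fold from vehicle at 14 days. A count of 1 is 7.14% of this list, beside 5.47% of all genes higher and 7.22% lower at 2 h, and 3.37% and 2.27% higher at 6 h and 1 day. MAP3K4, the kinase that GADD45 proteins activate, had ratios of 0.21, 0.13, −0.10 and 0.30, and PCNA had −1.37, −0.61, 0.09 and −0.28. GADD45GIP1, a mitochondrial ribosomal protein named for binding GADD45G, lay at 1.58 at 2 h and 1.23 at 6 h. The JNK kinase gene MAP2K4 lay at −1.04 at 2 h and the JNK2 gene MAPK9 at 1.15 at 1 day, each on 1 feature. PCNA was the 1 gene of 14 cell cycle genes (7.14%) that was at least 2-fold lower at 2 h, beside 7.22% of all genes. In this list 0 genes were 2-fold from vehicle later.

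Of 19 measured sestrin partners and family members, 2 were higher and 2 lower at 2 h, beside 5.47% and 7.22% of all genes, and 2 were lower at 6 h, beside 3.89%. TSC1, a brake on mTORC1, was 4-fold lower at 2 h and lay at −1.04, −0.80 and −0.99 later. NFE2L2, the antioxidant factor NRF2, lay at −1.11 ± 1.89 (SD, 2 features) at 2 h and −1.06 ± 1.08 at 6 h. The higher ones at 2 h were PRKAB1, an AMPK subunit (1.20), and NPRL3, a subunit of the GATOR1 complex (1.18 ± 0.69, 2 features). SESN3, the third sestrin gene, lay at −0.21, −0.20, −0.13 and −0.11.

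Of 13 measured genes of the TRAIL and Fas pathway, 1 was higher and 1 lower at 2 h and 0 were 2-fold from vehicle later. A count of 1 is 7.69% of this list, beside 5.47% of all genes higher and 7.22% lower at 2 h. The lower one was XIAP, the caspase inhibitor, at −1.40, and the higher one was TNFRSF10A, which lay at 0.28, 0.53 and 0.80 at the later times. TNFSF10, the ligand TRAIL itself, had ratios of 0.40 ± 0.13 (SD, 2 features), 0.21 ± 0.19, 0.37 ± 0.36 and 0.04 ± 0.07. The initiator caspase gene CASP8 lay at −0.03 ± 0.68, 0.47 ± 1.14, 0.05 ± 1.02 and −0.06 ± 0.67 (SD, 3 features). Of 23 damage sensor and repair genes, ATR, the kinase of stalled replication forks (−1.61), and the mediator MDC1 (−1.36) were lower at 2 h. They make up 8.7% of this list, beside 7.22% of all genes lower at 2 h. TOPBP1, the activator of ATR, was at least 2-fold higher at each time, at 1.66, 2.24, 4.82 and 1.11 on 1 feature. It was the 1 higher gene of this list (4.35%), beside 5.47%, 3.37%, 2.27% and 2.16% of all genes. ATM, the kinase of double-strand breaks, lay at −0.09 ± 0.32 (SD, 3 features) at 6 h, and its middle feature was listed at exactly 0 on the other arrays.

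Genes with a pattern like that of GADD45A were ranked by the root mean square difference of the 4 log2 ratios, among 7219 genes with 2 or more features, after 192 others with a feature listed at 0 on all 4 arrays were left out. The median difference over these genes was 2.83. TTC12 was nearest, at 0.50, with ratios of −3.24, −2.68, −2.47 and −2.79. The next was GUCY1A2, a subunit of soluble guanylate cyclase, at 1.20, with an SD over its 2 features of 2.67 at 1 day. INHBA (1.45), PALS2 (1.48), BTG3 (1.55), RPAP3 (1.59), RSRP1 (1.61) and CPEB3 (1.61) followed. INHBA encodes an activin subunit, and BTG3 belongs to an antiproliferative family. Their features lay far apart at 2 h, with ratios of −0.88 ± 1.73 for INHBA and −1.41 ± 2.24 for BTG3 (SD over 2 features). RPAP3, read by 10 features, had −2.27 ± 0.07 (SD) at 2 h and −1.04 ± 0.06 at 14 days, whereas GADD45A was lowest at 14 days. Of these 8 genes, TTC12 was the 1 whose ratios stayed below −2 on all 4 arrays, as those of GADD45A did.

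**Figure D5:**
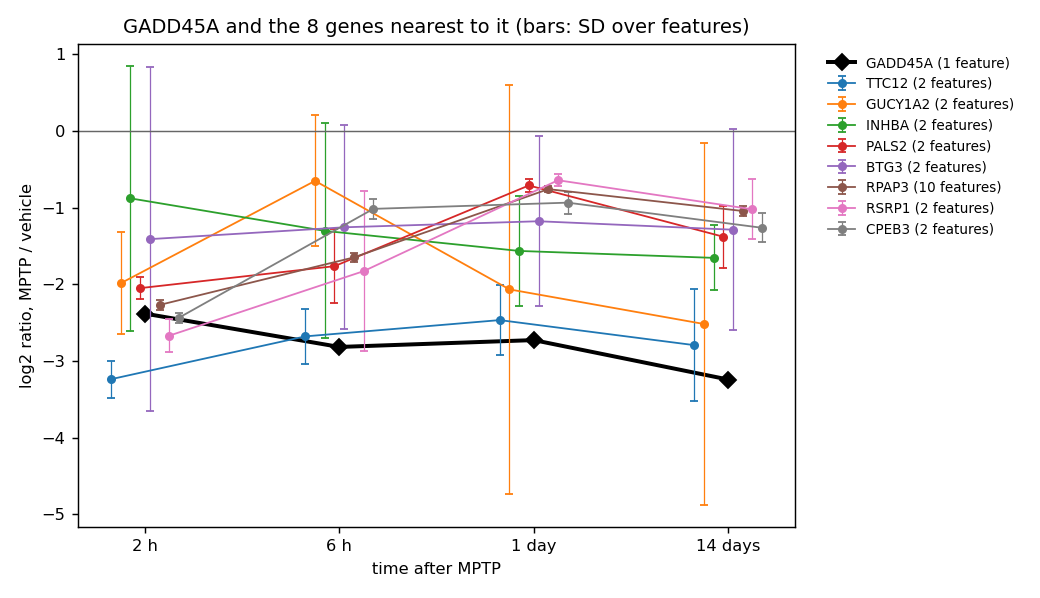
Log2 ratio of MPTP over vehicle (vertical axis) at the 4 times (horizontal axis) for GADD45A in black and the 8 nearest genes with 2 or more features. Bars are the SD over features, lines join different animals, and TTC12 is the 1 gene that stays below −2 beside GADD45A.

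Markers of the cell types in the nucleus also differed from vehicle on these arrays. The 5 markers of GABAergic neurons had medians of −0.26, −0.82, −0.63 and −0.78 from 2 h to 14 days, with single genes between −2.18 and 0.35. Of the 7 markers of dopamine neurons, the dopamine transporter gene SLC6A3 was listed at exactly 0 on every array and so has no readable ratio. It was left out after its values were seen. The other 6 had medians of −0.095, 0.65, 0.42 and 0.24. Of these, 0 were 2-fold lower at any time, beside 7.22%, 3.89%, 1.67% and 2.12% of all genes. ALDH1A1 was 2-fold higher at 6 h (1.06) and 1 day (1.23), and KCNJ6 at 1 day (1.01), each on 1 feature. Of all genes, 3.37% were 2-fold higher at 6 h and 2.27% at 1 day. The 5 measured erythrocyte markers had medians of 0.74, 0.33, 0.45 and 0.97, and the 6 astrocyte markers −0.52, −0.29, −0.051 and 0.091. Medians of the 7 measured microglia markers were 0.26, 0.42, 0.011 and 0.27, and of the 5 oligodendrocyte markers −0.18, 0.17, −0.050 and 0.078. Those of the 6 endothelium and pericyte markers were −0.0048, 0.35, 0.077 and 0.52. The part of these differences in the ratios of GADD45A and the other genes was not tested.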

How the data were processed

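Nigral RNA of 4 MPTP animals and 1 vehicle animal was measured on 4 arrays. Per the labels' protocols, RNA was amplified in 2 rounds and labelled with Cy3 or Cy5. The table deposited by the authors was taken to hold log10 ratios, Cy5 over Cy3, since column medians are near 0 and the values end at 2 in size. For software, background correction and normalization the authors' choices are not stated in the sources used here, and spot intensities were not analysed here, so dim features could not be set aside. The number of arrays limits the precision.

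Ratios were converted to log2, centred on each array's median, and taken as the median over a gene's features, of which 29033 carried 1 symbol. Genes were counted at 2-fold. All 8 genes, pathway genes at least 2-fold from vehicle (up to 4 per list and time) and 15 preset genes were eligible for naming, together with the 8 genes nearest to GADD45A. The lowest features and the genes they belong to were added after their values were seen. The 8 genes and the lists were chosen with earlier results of these data known. Calculations used Python 3.11.15 and pandas 2.3.3 and were tested on simulated data. Alternatives were no centring, the mean over features, 3-fold, equal spread, exact zeros or limit values left out, centring on named features, and agreeing features only.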

Additional observations from a re-analysis of the deposited data

How the results depend on the processing

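GADD45A stayed below vehicle under each alternative that could hold a gene with 1 feature. Of 192 ratios of the 8 genes, 187 moved by no more than the SD over their features. For GADD45A and SESN2, with 1 feature, the median such SD over all genes was used. With equal spread, GADD45A at 2 h, 1 day and 14 days and CDKN1A at 14 days moved further. With exact zeros left out, CDKN1A at 14 days did so too. Taking the mean over features could not move any ratio, since each gene has 1 or 2 features. A wide SD, 3.53 for TNFRSF10B at 2 h, also hides large moves, so nothing is read from the tally. Requiring 2 or more features that all passed left 0 of the 8 genes higher at 2 h, 0 lower at any of the 4 times, 0 lower between 6 h and 2 h, and 0 below vehicle on all 4 arrays. GADD45A, the 1 gene of the 8 lower at each time, has 1 feature and could not enter. The count of 0 lower at the 4 times was therefore fixed beforehand. Under this rule 0 of the other pathway genes were higher at any time, and 1 was lower at 2 h and 0 later. Pathway genes with 1 feature could not enter either, and no share of all genes under this rule is given here. With equal spread of the arrays GADD45A (−1.07) and TNFRSF10B (−1.11) were at least 2-fold lower at 6 h than at 2 h. The features of TNFRSF10B went in opposite directions there, and no share of all genes for this difference under equal spread is given here. The other pathway genes then numbered 3 higher and 3 lower at 2 h, 5 and 5 at 1 day and 2 and 6 at 14 days. The shares of all genes at each time under equal spread are those given above. At 3-fold the other pathway genes numbered 2 higher and 2 lower at 2 h, 1 and 1 at 6 h, 2 and 0 at 1 day, and 0 in either direction at 14 days. No share of all genes at 3-fold is given here. With equal spread 5 of the 8 genes nearest to GADD45A were shared. With each array left out, an alternative chosen after seeing the data, 2 or 3 of the 8 genes, GADD45A among them, lay below vehicle and 3 or 4 above it on the remaining arrays. No paired analysis was possible because each time had 1 animal. Spot brightness is unknown, so ratios near 0 cannot be told from spots near background.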
